A study of Mus musculus with 2 samples.

Results

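Tnnt3 encodes fast skeletal muscle troponin T, and every transcript model that the deposited tables assign to this gene was taken, 240 of 88667 models in replicate 2 and 166 of 72469 models in replicate 1. The models were read by their exon chains, that is by the ordered splice junctions that the paired annotation files give for each of them. Long-read RNA sequencing was run on total RNA of the gastrocnemius, a calf muscle, of male B6CASTF1/J mice at 36 days of age, with 2 µg of RNA and with Lexogen and Ambion spike-in RNAs. B6CASTF1/J is a first-generation cross of the C57BL/6J and CAST/EiJ strains. There was 1 group with 2 biological replicates, which the labels call male 04 (replicate 2) and male 03 (replicate 1) but give 1 shared donor entry, so the design held no contrast of conditions and every difference given here is between 2 libraries of the same kind. A test on the reads of these libraries compares the libraries and has no replicate check, and intervals cover counting error only.

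Troponin T is the subunit that ties the troponin complex to tropomyosin on the thin filament, and vertebrates have a slow skeletal, a cardiac and a fast skeletal gene for it. The fast gene is known for a large set of splice forms. Small exons near its 5′ end are joined in many combinations, and they code for a variable, acidic N-terminal stretch of the protein. Near the 3′ end, a pair of exons of equal length replace each other, and in rat and mouse the first of them is known as the adult (alpha) form and the second as the form of developing muscle (beta).

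The gene lies on chromosome 7 from 142498836 to 142516009 on the plus strand of mm10 (ENSMUSG00000061723.18), and GENCODE M21 lists 27 transcripts for it. Exons are numbered here along the gene as 1 to 8, F, 9 to 15, 16, 17 and 18, where F is the 39-base exon between exons 8 and 9, often called the fetal exon. The 8 annotated exons between exon 2 and exon 10 are shown first because the results turn on their small size. The sequences are those of the GENCODE M21 transcripts, 5′ to 3′, with all bases in capitals because each whole exon is the part that varies or that went undetected. In all, 7 of the 8 are 19 bases or shorter, and exons 4 to 8 and F are multiples of 3 in length.
exon 3: TGAACAAGTTGAGG
exon 4: AACAATACGAAGAGGAAG
exon 5: AGGAGGCCCAAGAGGAAG
exon 6: AAGTCCAGGAGGAAG
exon 7: CCCCCGAACCAG
exon 8: AGGAAGTCCAAGAAG
exon F: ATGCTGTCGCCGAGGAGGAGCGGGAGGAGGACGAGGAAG
exon 9: AGGAGAAACCAAGACCCAA
Glutamate codons have the letters GAA or GAG, and in any frame these letters occurred 7 times in exon F, 3 times each in exons 4 and 5, and once in exon 7. G and A together made up 83.3% of exon 4 and of exon 5, 80.0% of exon 6 and of exon 8, 76.9% of exon F and 41.7% of exon 7.

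The mutually exclusive exons are shown because they give a clear split of the reads. Capitals mark the 41 bases of the exon, and the lower-case letters are the last 10 bases of exon 15 and the first 10 bases of exon 18. Exon 16 lies at chr7:142513665-142513705 and exon 17 at chr7:142514326-142514366, both within the annotated coding range.
exon 16: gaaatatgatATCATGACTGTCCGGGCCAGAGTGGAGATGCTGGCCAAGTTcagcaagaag
exon 17: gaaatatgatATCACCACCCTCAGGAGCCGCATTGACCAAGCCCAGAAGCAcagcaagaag
The exons carry the same base at 18 of their 41 positions.

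The libraries held 1514119 reads in replicate 2 and 1106945 reads in replicate 1, of which 1374068 and 1036455 lay in annotated genes. These totals scale the CPM, the reads per 1e6 reads in annotated genes. The labels name the muscle and give no fibre type. Fast-fibre markers (Myh4, Myh1, Tnni2, Tnnc2) had 75835 CPM in sum in replicate 2, against 56309 CPM in replicate 1. Tnnc2 carried most of that sum, and Myh1, the 1 called member of the 4, went the other way, with 549 CPM in replicate 2 and 2508 CPM in replicate 1. Slow-fibre markers had 1888 CPM in sum in replicate 2, against 539 CPM in replicate 1, and fibroblast collagens had 734 CPM against 3192 CPM. Of the 6 slow-fibre markers, 4 were called as higher in replicate 2 (Tnnt1, Tnnc1, Tnni1, Myl3), where 5.76% of all genes tested were. In either direction, 18.6% of all genes tested were called. Tnnt1 alone had 1203 of the 1888 CPM, and the slow myosin Myh7 had 67.7 CPM in replicate 2 and 75.3 CPM in replicate 1. Developing-muscle myosins (Myh3, Myh8) had 2.91 CPM in sum in replicate 2, against 10.6 CPM in replicate 1, too few reads for a test.

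Tnnt3 took 6527 reads in replicate 2 and 2979 reads in replicate 1. These were 4750 and 2874 CPM, a mean of 3812 ± 1326 CPM (SD, n = 2). Replicate 2 was thus the higher library. The log2 ratio of replicate 2 over replicate 1 was 0.72 (95% interval 0.66 to 0.79), with a Benjamini-Hochberg adjusted p of 3.67e-118 over 8339 genes (exact binomial test). It stayed under the 2-fold that a call also required. Of all genes tested, 30.4% were past 2-fold, 18.6% were called and 5.76% were called as higher in replicate 2. The median of all genes was −0.28, so Tnnt3 lay 1.00 above the median on the log2 scale, and with TMM or DESeq2 size factors in place of read totals the ratio was 1.01 or 1.13 and the gene was called. The slow-fibre and fibroblast sums moved between the same libraries, and their part in this difference was not tested. In bulk tissue, fewer fibres of a type and less RNA per fibre cannot be told apart.

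Among the troponin T genes, with each molecule counted as 1 read and no scaling by length, Tnnt3 held 79.8% of reads in replicate 2 and 92.5% in replicate 1. The slow gene Tnnt1 held 20.2% and 7.46%, and the cardiac gene Tnnt2 had 2 reads and 0 reads. When incomplete and genomic models were left out, Tnnt3 held 98.9% in replicate 2 and 99.3% in replicate 1. That filter left 36 of 1653 Tnnt1 reads in replicate 2 and 13 of 240 in replicate 1. For Tnnt3 it left 3262 of 6527 and 1876 of 2979 reads. The Tnnt1 level in both libraries thus rests mostly on incomplete or genomic models. Of 11 other listed genes of the thin filament (troponins, tropomyosins and actin), 9 could be tested and 4 were called, all higher in replicate 2, where 5.76% of all genes were, namely Tnnt1, Tnnc1, Tnni1 and Tpm3. With DESeq2 size factors the fast gene Tnnc2 was called too, 5 in all. The median log2 ratio of the 9 was 0.60, against −0.28 over all genes. Of 11 listed splicing regulators of muscle, 2 were called (Mbnl2 and Celf2, both lower in replicate 2), a share close to the 18.6% of all genes, and 1 was called with TMM or DESeq2 size factors.

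Almost no Tnnt3 read matched an annotated transcript in full. Annotated models held 22 of 6527 reads (0.337%) in replicate 2 and 8 of 2979 reads (0.269%) in replicate 1, and each library held them in 1 model, the 2-exon transcript Tnnt3-221, which runs on upstream from exon 17 and is spliced to exon 18. No annotated coding transcript of the gene was matched in either library. Models classed as new combinations or as new junctions together made up 49.6% of reads in replicate 2, against 62.7% in replicate 1, spread over 177 and 123 models. The class of new combinations included the model with the unannotated 62-base exon described below (554 reads in replicate 2, 399 in replicate 1). The class name thus does not show that a model used annotated splice sites only. Incomplete matches took 34.6% and 26.1%, and genomic models, which have no spliced match, took 15.5% and 10.9%. The 2 tables did not always give a structure the same class. Of 98 junction chains shared by the libraries, 23 were classed differently, and these held 23.1% of spliced Tnnt3 reads in replicate 2 and 29.6% in replicate 1, so the split between new combinations and new junctions is not compared here.

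The chains themselves recurred. Replicate 2 held 239 distinct spliced chains and replicate 1 held 165, and the 98 chains found in both took 96.7% and 97.0% of spliced reads. The remaining 141 and 67 chains shared the rest, and 133 models in replicate 2 and 84 in replicate 1 rested on 1 read.

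The small 5′ exons were nearly missing from these chains. Of the reads whose model ran from exon 1 to exon 11, 2 of 3192 in replicate 2 and 0 of 1838 in replicate 1 held any of exons 4 to 8 or F. A count of 0 allows up to 0.163% in replicate 1. Exon 3, which 25 of 27 annotated transcripts hold and no annotated junction skips, was in 1 read and in 0 reads. Exon 9, held by 22 of the 27, was in 4 reads and 1 read. Over all informative reads, including those from other starts, exon 5 was held by 3 of 3262 reads in replicate 2 and 0 of 1873 in replicate 1, exon 8 by 1 of 3270 and 0 of 1880, and exon F by 1 of 3278 and 0 of 1882. Exons 4, 6 and 7 were held by no read. The Fisher exact test over 3623 annotated cassette exons of all genes, of which 0.138% were called, had no call among exons 4 to 9 of Tnnt3, and 3.37% of all exons met the 10-point difference that a call required.

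An absent small exon in these chains does not show that the RNA lacked it, because exons of this size were missing from other genes as well. Among annotated exons that no annotated junction skips, and with at least 20 informative reads, those of 15 bases or shorter were held by a median of 0% of reads, over 6 exons in replicate 2 and 8 in replicate 1. Exon 3 of Tnnt3 was among them in both libraries. Another was a 7-base exon of the fast troponin I gene Tnni2, which 0 of 6490 reads held in replicate 2 and 0 of 4609 in replicate 1. The 12-base exons of the calpain genes Capn1 and Capn2 and the 8-base exon of Pitpnc1 were likewise held by 0 of 20 to 64 reads in both libraries. At 16 to 20 bases the median was 87.5% and 91.1% over 12 exons in each library, and 4 of the 12 fell under 5%. At 21 to 30 bases it was 99.7% and 100%. Exon 9 of Tnnt3, at 19 bases and 0.404% and 0.271% of reads, thus lay below the median of its size class, and exons 4 and 5, at 18 bases, did too. Unlike the exons of that class, exons 4, 5 and 9 are skipped by annotated junctions. They are held by 16, 24 and 22 of the 27 annotated transcripts.

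Exon F stood apart from the other missing exons in length. Its 39 bases fall in the class of 31 to 40 bases, in which the median exon was held by 100% of reads in both libraries and none of 241 exons in replicate 2 or 307 in replicate 1 was held by under 5%. Those exons are ones that no annotated junction skips, while 9 of the 27 annotated Tnnt3 transcripts hold exon F. Exon F was in 0.0305% of reads in replicate 2, with a 95% Wilson interval up to 0.173%, and in none of replicate 1, with an interval up to 0.204%.

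**Figure D1:**
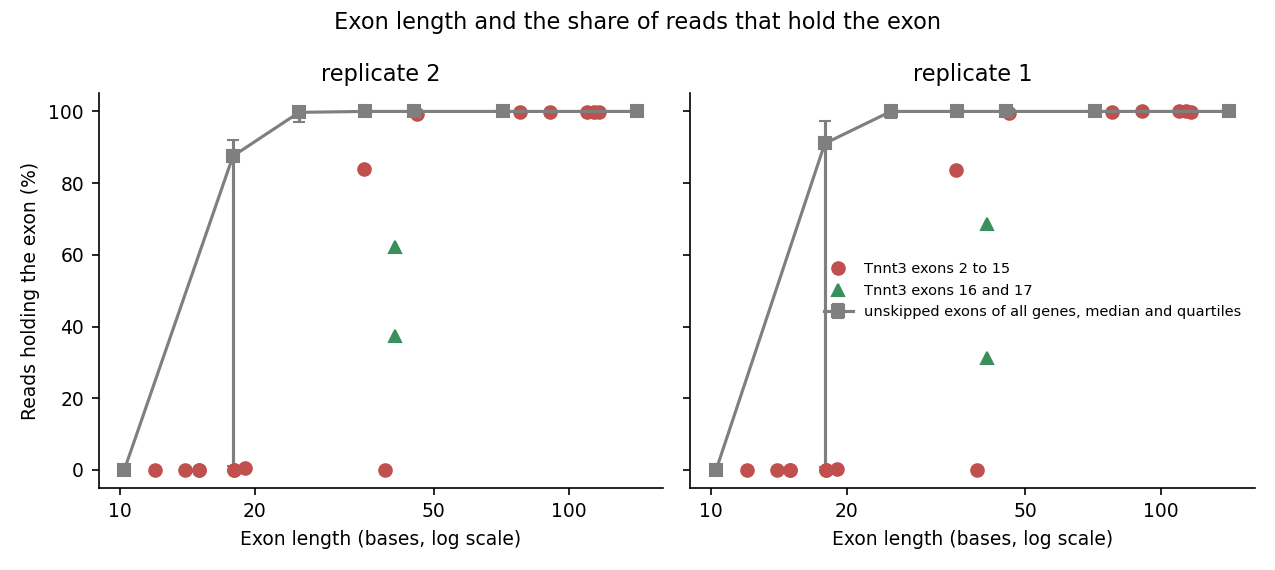
Share of informative reads that held an exon (percent) against exon length (bases, log scale), replicate 2 on the left and replicate 1 on the right. Grey squares are medians over annotated exons of all genes that no annotated junction skips, with quartile bars; red points are Tnnt3 exons 2 to 15 and green triangles exons 16 and 17. The shortest class sits at 0% in both panels, and the Tnnt3 exons of 12 to 19 bases and the 39-base exon F lie near 0%.

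Exons 10 to 15, of 46 to 117 bases, were held by between 99.2% and 99.9% of informative reads in replicate 2 and between 99.5% and 100% in replicate 1. Exon 2, of 35 bases, could be judged with its annotated ends in 75 and 43 reads only, of which 84.0% and 83.7% held it. In most chains it carried another 3′ end. Among reads from exon 1 to exon 11, exon 2 kept its annotated start in 99.9% of reads of either library but its annotated end in 1.94% in replicate 2 and 1.85% in replicate 1. Exon 10 kept its annotated start in 51.2% of these reads in replicate 2 and 59.5% in replicate 1.

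In place of the annotated small exons, the deposited models gave longer forms of exon 2 and exon 10 or an unannotated exon between them. Whether the RNA held exons with these ends was not tested. There were 63 such 5′ chains in replicate 2 and 51 in replicate 1, and the 36 in both held 98.8% and 99.1% of the reads. The 5 leading chains made up 84.4% of these reads in replicate 2, against 85.3% in replicate 1. The inverse Simpson number, the count of equally frequent chains that would give the same evenness, was 5.84 and 5.62.

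The chain with the largest mean share held exon 2 longer by 4 bases, an unannotated exon of 62 bases at chr7:142505999-142506060, and exon 10, and its share was 23.0% in replicate 2 and 25.5% in replicate 1. The chain with exon 2 longer by 70 bases and an unchanged exon 10 took 21.1% and 26.8%. The chain with exon 2 longer by 9 and exon 10 longer by 80 bases at its 5′ end took 23.3% and 14.5%, the widest gap between the libraries among these 3 chains. The next chains all had exon 2 longer by 4. With exon 10 longer by 111 bases the share was 12.1% in replicate 2 and 11.7% in replicate 1, with exon 10 longer by 73 it was 4.95% and 6.91%, and with exon 10 longer by 103 it was 3.85% and 3.32%. For the chain with 111 bases the 95% Wilson intervals overlapped (10.98% to 13.2% in replicate 2, 10.3% to 13.2% in replicate 1), as they did for the chains with the 62-base exon and with 103 bases. They did not for the chain with exon 10 longer by 80 (21.8% to 24.8% and 12.9% to 16.2%), which was higher in replicate 2, nor for those with exon 2 longer by 70 or exon 10 longer by 73, which were lower in replicate 2.

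**Figure D2:**
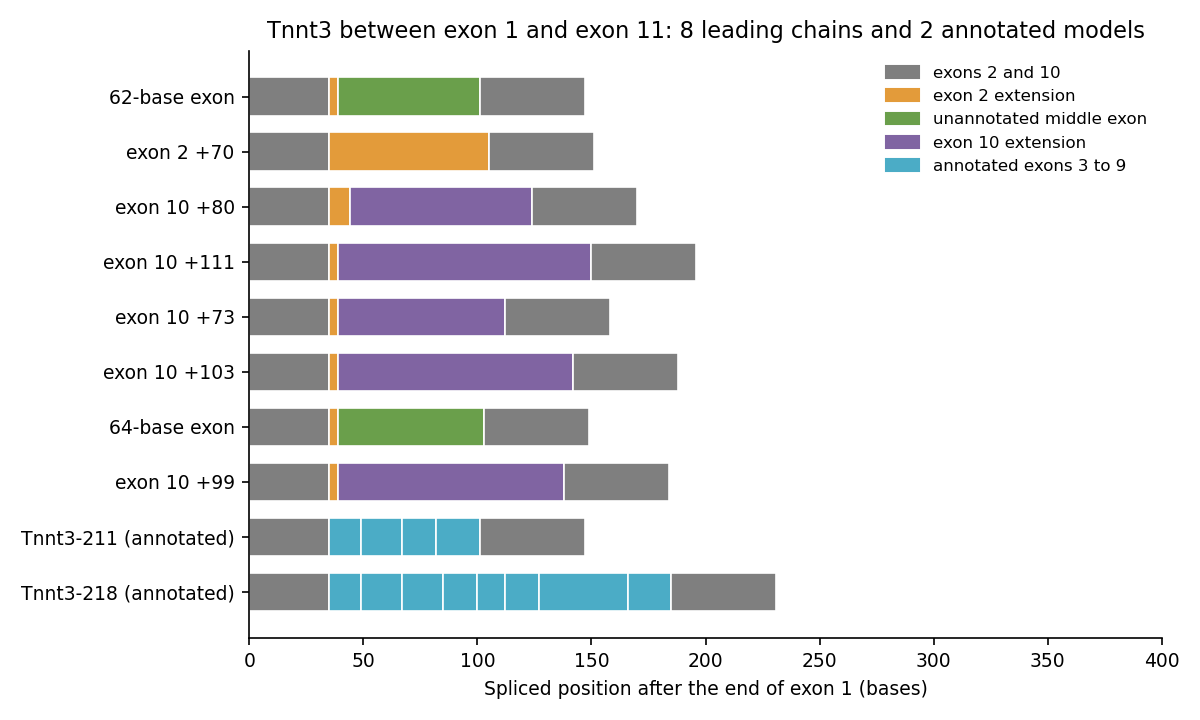
Spliced structure of Tnnt3 between exon 1 and exon 11 (bases after the end of exon 1, to scale) for the 8 chains with the largest mean share, from the top, and for 2 annotated transcripts. Grey is annotated exon 2 and exon 10, orange an extension of exon 2, green an unannotated exon, purple an extension of exon 10 and blue the annotated exons 3 to 9. Each leading chain has 1 long added block where the annotated transcripts have several short exons.

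The bases that lay between annotated exon 2 and exon 11 were compared with the annotation. The 24 annotated transcripts that span this region hold between 97 and 196 bases there, in 14 different sets of exons 4 to F. The leading chains held 112 bases (62-base exon), 116 (exon 2 longer by 70), 135 (exon 10 longer by 80), 161 (longer by 111), 123 (longer by 73) and 153 (longer by 103), all within the annotated range. The annotated transcript Tnnt3-211, with exons 5 and 8, also has 112 bases. None of the other totals equals that of an annotated transcript or differs from one by a whole number of codons. Read as they stand, those chains would thus not keep the annotated reading frame between exon 2 and exon 11. Their translation was not tested. The bases of the unannotated extensions were not read from a genome here, and whether they match those of the small exons was not tested.

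**Figure D3:**
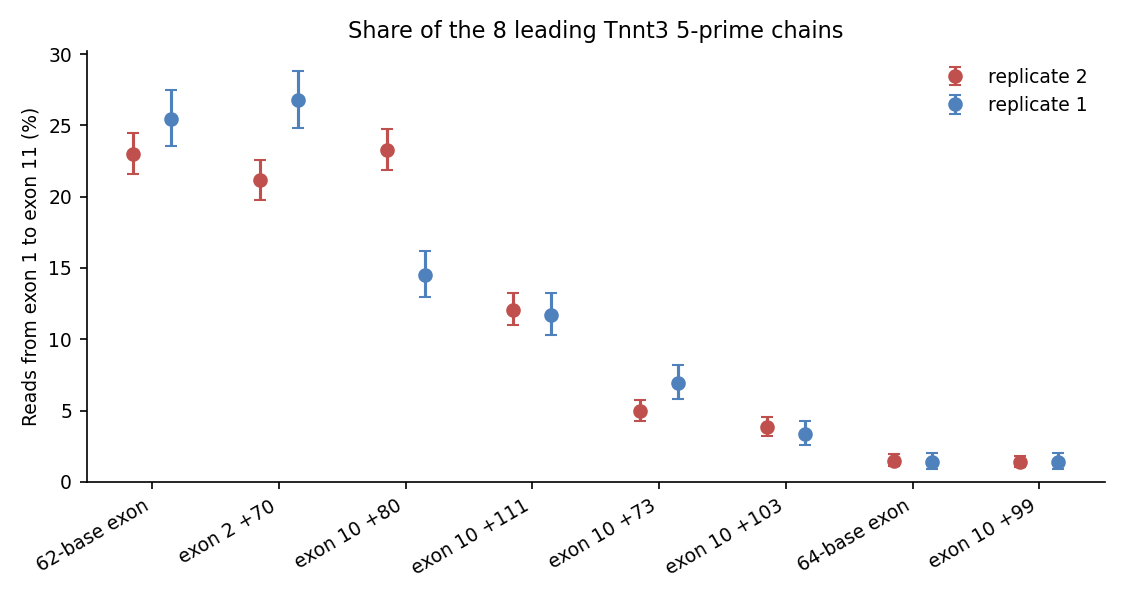
Share of reads from exon 1 to exon 11 (percent) in each of the 8 leading 5′ chains, with 95% Wilson intervals, replicate 2 in red left of replicate 1 in blue. The first 3 chains lie between 14.5% and 26.8%, and the widest gap is that of the chain with exon 10 longer by 80 bases, 23.3% in replicate 2 and 14.5% in replicate 1.

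A few reads showed the annotated sites of the small exons in other settings. Models whose last exon began at the start of exon 4 and ran on past its end held 28 spliced reads in replicate 2 and 8 in replicate 1. Models with a 7-base exon that begins at the start of exon 3 held 32 and 17 reads in the chain that goes on to exon 10 (1.00% and 0.925% of reads from exon 1 to exon 11). Chains with an exon of 83 bases that begins at the start of exon 9 held 33 and 24 reads.

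The 3′ pair was resolved in nearly every read whose model ran from exon 15 to exon 18. Of models that ran from exon 15 to exon 18, 3285 reads held exon 16 and 2005 held exon 17 in replicate 2, and 1746 held exon 16 and 804 held exon 17 in replicate 1. Both exons together were held by 27 reads in replicate 2 and 10 in replicate 1, and neither by 8 and 3. Exon 16, the adult form, thus took 62.1% (95% Wilson interval 60.8% to 63.4%) of reads with 1 exon of the pair in replicate 2 and 68.5% (66.6% to 70.2%) in replicate 1, a mean of 65.3% ± 4.51 (SD, n = 2). Exon 17 took the other 37.9% and 31.5%.

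The share of exon 16 was lower in replicate 2. By the Fisher exact test over all annotated cassette exons, exon 16 was held by 6.42 points fewer informative reads in replicate 2 (adjusted p = 1.76e-05 with Benjamini-Hochberg adjustment), and exon 17 by 6.28 points more (adjusted p = 1.76e-05). Neither met the 10-point difference that a call required. The direction was the same in models that began in exon 1 (64.1% in replicate 2 and 70.3% in replicate 1) and in those that began after it (59.2% and 63.8%). In both libraries the models from exon 1 had the larger exon 16 share. In models that began in exons 9 to 12 the share was 63.1% in replicate 2 and 60.8% in replicate 1, with intervals of 57.7% to 68.2% and 53.9% to 67.3% that overlapped.

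Reads with different 5′ chains differed in how often they held exon 17 or exon 16. This comparison over whole chains was chosen after the data were seen, since too few reads held the annotated cassette exons, and it is a description over molecules without a test. In replicate 2 there were 1137 exon 17 reads and 2028 exon 16 reads from models that covered both regions, and in replicate 1 there were 541 and 1279. The chain with exon 10 longer by 111 bases took 25.9% of exon 17 reads against 4.24% of exon 16 reads in replicate 2, an odds ratio of 7.88 (95% Woolf interval 6.12 to 10.1). In replicate 1 it took 29.2% of exon 17 reads against 4.22% of exon 16 reads, an odds ratio of 9.29 (6.69 to 12.9). The chain with exon 10 longer by 73 bases leaned the same way, with 10.2% of exon 17 reads against 1.97% of exon 16 reads in replicate 2 and 17.01% against 2.74% in replicate 1. Read within the chain, exon 17 made up 77.4% of the reads with 111 added bases in replicate 2 and 74.5% in replicate 1, and 74.4% and 72.4% of those with 73.

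The 3 leading chains leaned to exon 16. Together they held 43.8% of exon 17 reads against 80.9% of exon 16 reads in replicate 2, and 33.6% against 80.8% in replicate 1. Their odds ratios for exon 17 were 0.442 in replicate 2 and 0.266 in replicate 1 for the chain with the 62-base exon, 0.514 and 0.394 for exon 2 longer by 70, and 0.441 and 0.380 for exon 10 longer by 80. A rarer chain, with an unannotated exon of 65 bases at chr7:142505937-142506001, had 20 exon 17 reads and 0 exon 16 reads in replicate 2, and 17 and 0 in replicate 1. A count of 0 allows up to 0.148% of exon 16 reads in replicate 2 and 0.235% in replicate 1.

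For other chains the intervals were wide. With exon 10 longer by 103 bases, the odds ratio was 1.49 (1.04 to 2.14) in replicate 2 and 0.926 (0.528 to 1.63) in replicate 1. With exon 10 longer by 99 it was 6.65 (3.23 to 13.7) in replicate 2 and 1.89 (0.867 to 4.13) in replicate 1. The intervals of the libraries overlapped for both chains. Exon 17 reads held a median of 135 bases between exon 2 and exon 11 against 116 in exon 16 reads in replicate 2, and 127 against 116 in replicate 1. The upper quartile was 161 against 135 in both libraries.

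**Figure D4:**
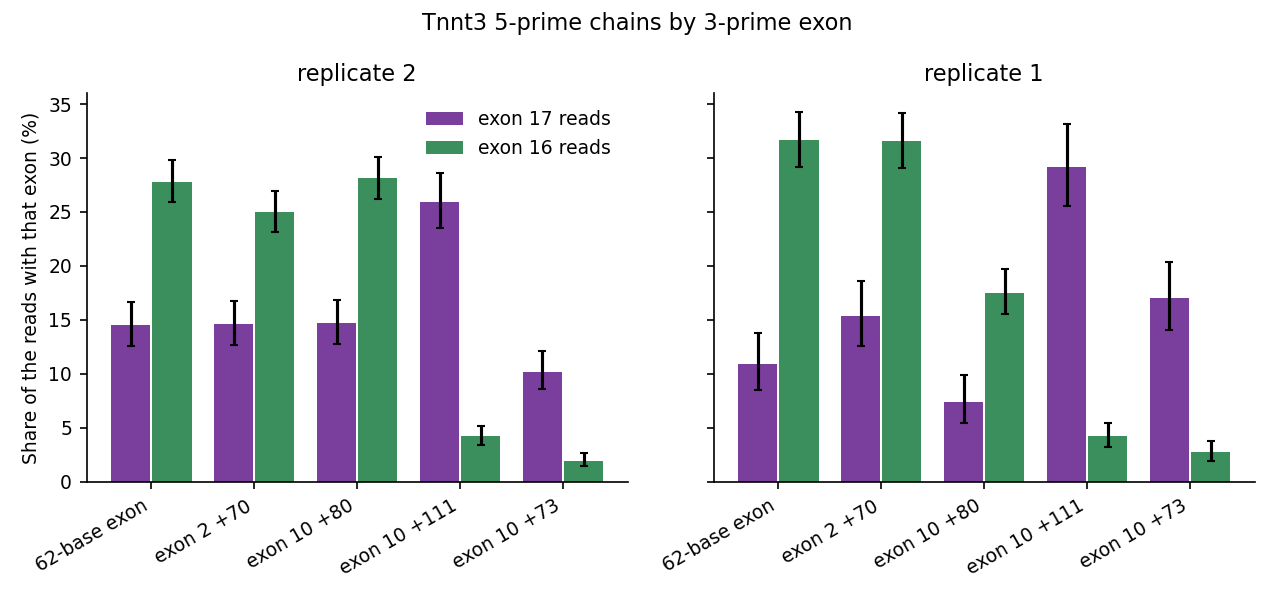
Share of the exon 17 reads (purple) and of the exon 16 reads (green) in each of the 5 leading 5′ chains (percent), with 95% Wilson intervals, replicate 2 on the left and replicate 1 on the right. Purple is above green for the chains with exon 10 longer by 111 or 73 bases, 25.9% against 4.24% and 10.2% against 1.97% in replicate 2, and below it for the other 3.

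Models were more complete at the 3′ end than at the 5′ end. Of spliced Tnnt3 reads, 98.1% in replicate 2 and 97.9% in replicate 1 ended in exon 18, while 58.5% and 69.6% began in exon 1, where a start is given by the exon that holds the first splice donor. Models from exon 1 to exon 18 held 57.2% of spliced reads in replicate 2 and 68.3% in replicate 1. The other starts were gathered in exons 13 to 15, which held 31.5% of spliced reads in replicate 2 and 18.4% in replicate 1. Exon 13 began 10.8% and 6.25%, exon 14 began 9.84% and 5.08%, and exon 15 began 10.9% and 7.12%. Exons 2 to 8 and F together held few starts, at most 7 reads for any of them. Incomplete models that stop short of the 5′ end and carry over 1% of Tnnt3 reads had 2 to 7 exons and 270 to 783 bases. Those of 3 or more exons span exon 15 to exon 18 and enter the exon 16 share but not the chain shares, and those of 2 exons enter neither.

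**Figure D5:**
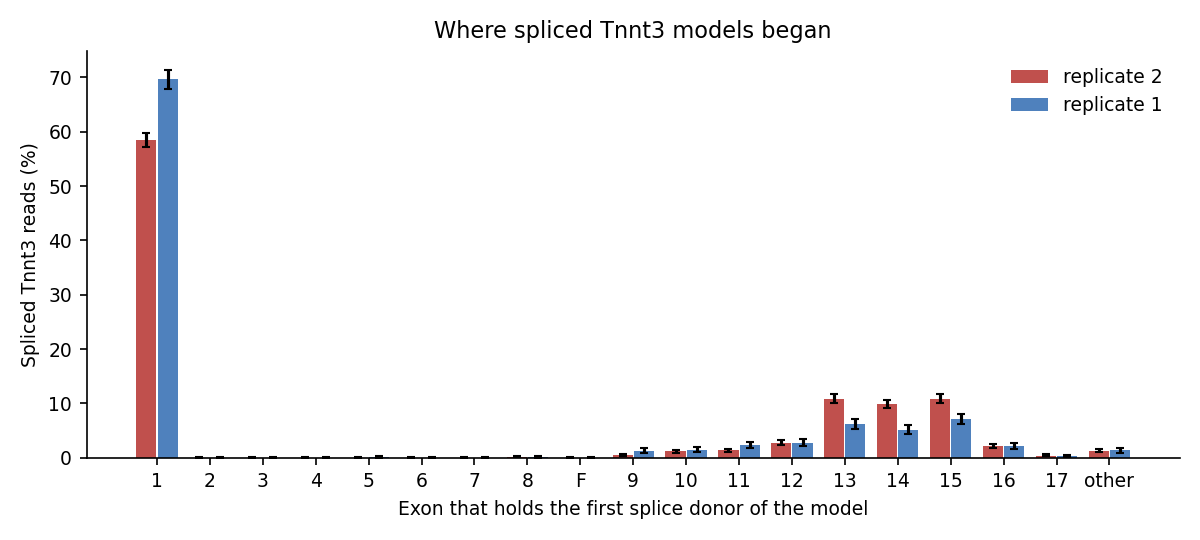
Share of spliced Tnnt3 reads (percent) by the exon that holds the first splice donor of their model, with 95% Wilson intervals, replicate 2 in red left of replicate 1 in blue. Exon 1 holds 58.5% in replicate 2 and 69.6% in replicate 1, and exons 13 to 15 hold most of the rest.

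Models of 2 exons that joined exon 16 to exon 18 held 115 reads in replicate 2 and 58 in replicate 1. Those that joined exon 17 to exon 18 were the 22 and 8 reads of Tnnt3-221, whose first exon begins in the intron before exon 17. Exon 18 was entered 3 bases late, past its first bases cag, in 55 of 5468 reads (1.01%) in replicate 2 and 28 of 2628 reads (1.07%) in replicate 1, a share that the libraries had in common within counting error. Reads that kept a whole annotated intron were 0.652% of spliced reads in replicate 2 and 1.84% in replicate 1. The intron between exons F and 9 was kept by 18 reads in replicate 2 and 34 in replicate 1, and the one between exons 16 and 17 by 5 and 18. Models whose first exon began between exons 7 and 9 and ran on through exon 9 held 30 and 34 reads. Reads of such starts can count as keeping the intron before exon 9, and the overlap was not counted.

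The full-length forms that carried the most reads joined a leading 5′ chain to exon 16. With the 62-base exon and exon 16, a model of 11 exons held 554 reads (8.49% of Tnnt3 reads) in replicate 2 and 399 reads (13.4%) in replicate 1. With exon 2 longer by 70 and exon 16, a model of 10 exons held 493 reads (7.55%) and 392 reads (13.2%). With exon 10 longer by 80 and exon 16, it was 564 reads (8.64%) and 219 reads (7.35%). The leading form with exon 17 had exon 10 longer by 111, with 287 reads (4.40%) in replicate 2 and 155 reads (5.20%) in replicate 1. These models were between 994 and 1044 bases long. The same 4 forms led the full-length models of both libraries, in another order.

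Each library also held 1 single-exon Tnnt3 model, of the genomic class and on the plus strand. In replicate 2 it was 2340 bases long and held 1009 reads, 15.5% of Tnnt3 reads (95% Wilson interval 14.6% to 16.4%). In replicate 1 it was 3382 bases long and held 323 reads, 10.8% (9.78% to 12.0%). The model of replicate 2 began at the first base of exon 16 and that of replicate 1 began 4 bases after the end of exon 15. Both ended within 4 bases of the annotated end of exon 18, so both ran through exons 16, 17 and 18 and the introns between them. A model gives 1 pair of ends for all its reads, so the lengths of the single reads behind it are unknown.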

How the data were processed

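The deposited tables hold whole-number read counts per transcript model and library, not normalized or pooled by the authors, with each model's length and exon number as other columns; per the file headers, the build was mm10 with GENCODE M21, and the deposited annotation files name TALON. The aligner is not given in the sources used here. Spike-in models were left out, and gene counts were sums over the models of annotated genes. Models, gene lists and exon groups were chosen with earlier results of these data known. Text names models with at least 1% of Tnnt3 reads in either library, the cassette exons and the 3′ pair. A library difference was tested per gene with at least 10 reads by a two-sided exact conditional binomial test (outcomes no likelier than the one seen, 0.5 reads added for log2 ratios), and per annotated cassette exon with at least 20 informative reads in each library by Fisher's exact test, both with Benjamini-Hochberg adjustment, and called at an adjusted p under 0.05 and 2-fold or 10 points. Intervals are Wilson or Woolf (0.5 added to each cell) at 95%, and the floor of a count of 0 is 3 counts. Linkage was planned per cassette exon and was run over whole 5′ chains instead, because at most 3 reads held such an exon with either exon of the pair. Both tests were tested on simulated data that held counting error only, so the simulation does not cover variation between libraries. Python 3.11.15, numpy 2.4.6, scipy 1.17.1, pandas 2.3.3, edgeR 4.0.16 and DESeq2 1.42.0 in R 4.3.3 (size factors only) were used. Alternatives changed the scaling, the gene filter, the model classes, the minimum reads per model, the exon-end tolerance and the library used.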

Additional observations from a re-analysis of the deposited data

How the results depend on the processing

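Of 71 alternatives over 16 values, 67 kept the direction and the side of the threshold, or moved by no more than a set margin. The margin was the SD of the libraries, or a set fold for counts. Leaving out 1 library could not exceed it, because each of 2 values lies within 1 SD of their mean. Leaving out models under 50 bases or the gene filter left the Tnnt3 level and shares unchanged. The 67 thus overstate how far the values were put to the test. The log2 ratio of Tnnt3 between the libraries reached 1.01 with TMM and 1.13 with DESeq2 size factors, past the 2-fold threshold, while the median of all genes moved to 0.01 and 0.13 and the called genes numbered 1470 and 1458 against 1555. With models of at least 2 reads, the 5 leading 5′ chains held 86.5% of reads, against 84.9% with all models, and 21 chains were in both libraries, against 36; models of 1 read are left out by construction. Leaving out either library left 1 sample and no test, so each value is that of the other library. These ranges were 2874 to 4750 CPM for the level, 57.2% to 68.3% for models from exon 1 to exon 18, 10.8% to 15.5% for the single-exon models, 0% to 0.0627% for exons 4 to F, 62.1% to 68.5% for exon 16, 84.4% to 85.3% for the 5 leading chains, and 2.98 to 3.22 for the log2 odds ratio of the chain with exon 10 longer by 111. No paired analysis was possible because the study has 1 group. Depth limits exons 4 to F to an upper bound in replicate 1, and 2 libraries give an SD of 1 degree of freedom.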

Other observations

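Other transcripts were read within the Tnnt3 locus. The tables place 1 single-exon genomic model of Prr33 on the minus strand, 1326 bases long, from the start of exon 4 to the end of exon 5 of Tnnt3, with 366 reads in replicate 2 and 198 reads in replicate 1. Antisense loci without a gene name held 21 reads in replicate 2 and 8 reads in replicate 1. Their models shared 1 end, between exons 9 and 10 of Tnnt3.

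Tnnt3 was among the genes with the most recurrent spliced chains. With at least 5 reads in each library, 40 junction chains of Tnnt3 were present in both, the same number as for the fast myosin gene Myh4 and second to the 50 of the calcium pump gene Atp2a1, among 4830 genes. Spliced reads numbered 5518 in replicate 2 and 2656 in replicate 1 for Tnnt3, against 35600 and 103992 for Atp2a1. The fast myosin light chain gene Myl1 had 37 such chains and Actn3 had 33.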
